A study of Mus musculus with 24 samples.

Results

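The effect of deleting BAF180 on gene expression was examined in Th2 cells 1.5 h after they had been stimulated with PMA and ionomycin. These are the 3 arrays labelled as stimulated Th2 cells deficient in Pbrm1/BAF180 and the 3 labelled as stimulated wild type Th2 cells, 6 of the 24 Illumina MouseRef-8 v2 BeadChip arrays of the study. The other 18 arrays hold resting Th2 cells and resting and stimulated naïve CD4 T cells of the same genotypes, with 3 arrays per group, and enter here for the estimate of the spread and for comparison. All cells came from mice of 4 to 6 weeks that the labels call Balb/c, whereas the methods describe floxed mice kept on another, mixed background before the cross. BAF180-deficient cells came from mice in which exon 11 of Pbrm1 is flanked by loxP sites and removed by a Cre transgene under the CD4 promoter, so that the deletion begins in developing T cells and is present long before the culture and the stimulation. WT cells are given only as wild type, and whether they carried the Cre transgene is not given in the sources used here. Naïve CD4+CD62L+ cells from spleen and lymph nodes, purified to 95%, were plated on coated antibodies to CD3 (1 µg/ml) and CD28 (2 µg/ml) in medium with 10 ng/ml of IL-4 and 10 µg/ml of an antibody to IFN-gamma. After 24 h they received 100 U/ml of IL-2, in which the cultures were expanded from day 3. Both genotypes were then given 50 ng/ml PMA together with 500 ng/ml ionomycin.

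SWI/SNF complexes use the energy of ATP to move and evict nucleosomes. The PBAF form contains BAF180, a protein with several bromodomains that bind acetylated histones and that is encoded by Pbrm1, together with BAF200, encoded by Arid2, and the BRG1 ATPase, encoded by Smarca4. Th2 cells are helper T cells that transcribe the IL-4, IL-5 and IL-13 genes under the transcription factor GATA3. PMA activates protein kinase C and ionomycin raises intracellular calcium, so that together they bypass the T cell receptor and switch on immediate early genes and cytokine genes.

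Between 9205 and 10154 probes were detected on each of the 6 arrays, and the correlation between any pair of arrays was between 0.972 and 0.991. All 9 tested markers of CD4 T cells and 5 of 7 markers of Th2 cells were detected on all 6 arrays, while Ptgdr2, a prostaglandin receptor of Th2 cells, was not detected on any. Of 9 tested markers of B cells 4, Ms4a1 and Cd22 among them, were not detected on any array and none was detected on all arrays of a genotype. Their summed normalized intensities were 175.3 to 285.5 in WT cells and 187.9 to 417.5 without BAF180. The normalization adds an offset of 16 to each marker, so that these and the following sums are not intensities above background. Of 10 markers of myeloid cells 5, Lyz2, S100a8 and S100a9 among them, were not detected on any array and 2, Adgre1 and Cst3, were detected on all, with sums of 1165.4 to 1452.9 in WT cells and of 938.8 to 1263.4 without BAF180. Of 4 markers of NK cells Nkg7 and Prf1, which activated T cells also express, were detected on all arrays, with sums of 476.6 to 569.3 and of 477.3 to 910.4, and the other 2 on none. Sparc of stromal cells was not detected. Cd8b1, the only tested marker of CD8 T cells, was detected on every array. Its normalized intensity, offset included, was 165.5, 185.1 and 356.5 on WT arrays A, B and C. On the BAF180-deficient arrays of the same letters it was 101.0, 87.0 and 290.5, and the part of these cells in any result was not tested. By the study's account the RNA came from mice of both genotypes in 3 pairs, but nothing ties the replicate letters to those pairs. Deviations from the group means of WT and BAF180-deficient arrays with the same letter were correlated across probes at 0.241 for A, 0.186 for B and 0.662 for C. Between letters the correlation was 0.393 for WT A with BAF180-deficient B and 0.179 for WT B with BAF180-deficient A, and it lay between -0.52 and -0.30 wherever a C array was set against another letter, so that only C was set apart by these values. Letters were read as pairs, and each comparison was fitted without and with the letter. Arrays of letter C stood apart from those of A and B in both genotypes. With 3 pairs of mice, few animals stand behind each group. Unless stated otherwise, the p-values and SEs use a spread pooled over the animals and cultures of all cell states of the study. For a single gene that spread can be larger or smaller than the spread among the stimulated Th2 arrays.

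Values are log2 intensities after background correction and quantile normalization, and a difference is always BAF180-deficient minus WT on that log2 scale. A gene was counted as changed when at least 1 of its probes had a difference of more than 0.28, which is 1.5 times the SD of the differences over all probes tested, a p below 0.05 and a false discovery rate below 0.3 in limma. Of 10418 genes tested, 11 were counted, which is 0.106%, with 9 lower and 2 higher in BAF180-deficient cells. With the letter as a block 42 genes were counted, or 0.403%, with 30 lower and 12 higher, and all 11 were among them. An adjusted p below 0.05 in limma was reached without the block by 4 probes, or 0.0281%, of 3 genes, Upp1, Sln and Pbrm1, all of them lower. Without any adjustment 397 of 14246 probes (2.79%) had a p below 0.05 in limma without the block and 721 (5.06%) with it. The counts rest on the spread estimated from all 24 arrays: in limma fitted to the 6 arrays alone no gene was counted, and 487 probes had an unadjusted p below 0.05. Leaving out single arrays gave between 3 genes, without WT array A, and 33 genes, without WT array C.

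Pbrm1 itself was lower on every BAF180-deficient array. Its brightest probe measured 8.52, 8.14 and 8.21 on WT arrays A, B and C and 6.56, 6.90 and 7.15 on the BAF180-deficient arrays. The groups did not overlap, and the difference was -1.42 (SE 0.23, 2.67-fold lower; limma adjusted p = 0.0141). The 2 dimmer probes gave -0.63 and -0.55 and were not detected on any BAF180-deficient array. Where the probes lie relative to the deleted exon is not given in the sources used here, so the remaining signal of the brightest probe cannot be read as undeleted cells. The Pbrm1 difference was -1.86 in resting Th2 cells and -1.63 in stimulated naïve cells, and neither departed from that in stimulated Th2 cells beyond the error (limma interaction, unadjusted p = 0.182 and 0.508).

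No other tested SWI/SNF subunit was counted. Arid2 differed by 0.23 and Smarca4 by 0.16, and their arrays overlapped. Among the 9 tested subunits shared by BAF and PBAF, the 2 scaffold paralogs lay farthest apart. Smarcc1 (BAF155) differed by -0.57 (unadjusted p = 0.0176 in limma). Its dimmer probe, near background and detected on 1 WT array and 2 BAF180-deficient arrays, gave 0.12. Smarcc2 (BAF170) differed by 0.39 (unadjusted p = 0.0633 in limma), with all BAF180-deficient arrays above the WT arrays. The 8 tested subunits of the BAF form lay between -0.20 for Smarca2, the Brm ATPase, and 0.27 for Bcl7a. Brd7, Phf10 and Arid1a were not analysed here.

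**Figure D1:**
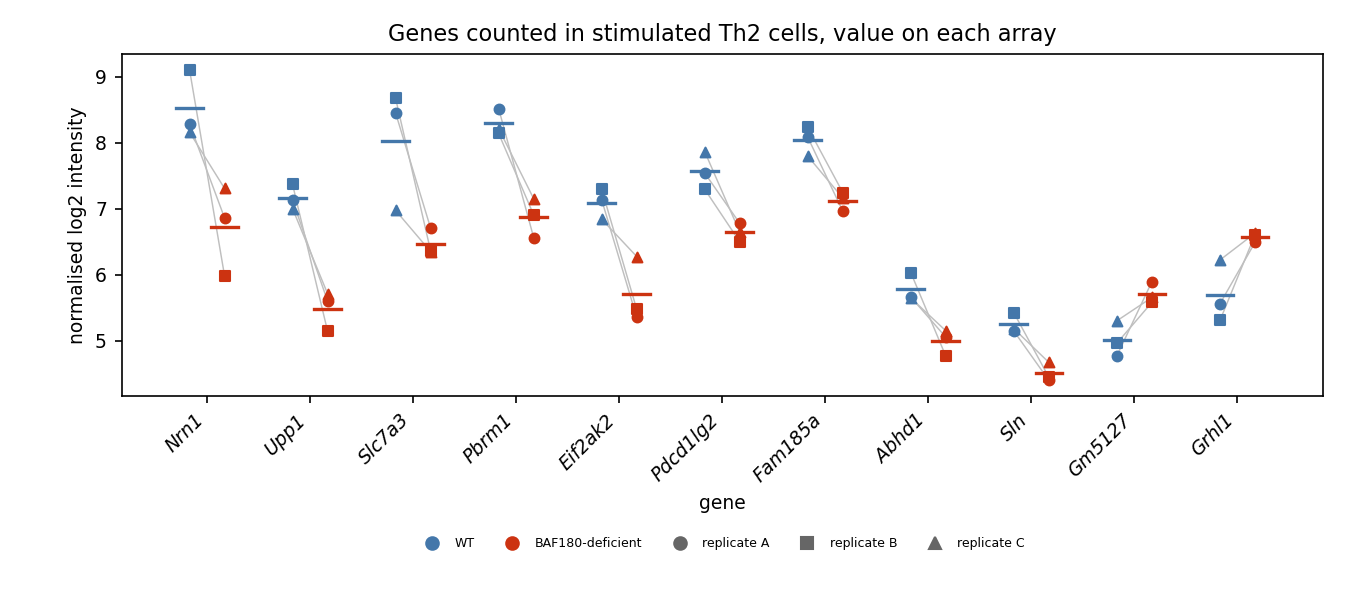
Normalised log2 intensity of the 11 counted genes on each array of stimulated Th2 cells; points are arrays (circle A, square B, triangle C), grey lines join arrays of the same letter and short bars are group means of 3 arrays. In each of the 11 genes the 3 BAF180-deficient arrays lie entirely on one side of the WT arrays.

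Upp1, which encodes uridine phosphorylase, an enzyme that splits uridine into uracil and ribose phosphate, had the lowest p of all. It measured 7.13, 7.37 and 7.0 on the WT arrays and 5.60, 5.15 and 5.71 on the BAF180-deficient arrays. These values do not overlap, and the difference was -1.68 (SE 0.23, 3.20-fold lower; limma adjusted p = 0.00366, and 0.00636 with the letter as a block). Its other 2 probes gave -1.15 and -0.78. Sln, which encodes sarcolipin, a small inhibitor of the calcium pump of the endoplasmic reticulum, measured 5.15, 5.42 and 5.18 against 4.40, 4.45 and 4.67. This dim gene was detected on all WT arrays and on 1 BAF180-deficient array, and it differed by -0.75 (SE 0.11; limma adjusted p = 0.00439). Upp1, Sln and Pbrm1 were also the 3 genes that stayed counted whichever of the 6 arrays was left out.

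Slc7a3, the cationic amino acid transporter CAT-3, measured 8.45, 8.67 and 6.97 in WT cells and 6.70, 6.36 and 6.35 without BAF180. The WT array of letter C lay close to the BAF180-deficient arrays, and the difference of -1.56 (SE 0.29) had a limma adjusted p of 0.0694. Nrn1, which encodes neuritin, a membrane-anchored protein known from neurons and T cells, had the largest difference of the counted genes. It measured 8.28, 9.11 and 8.16 against 6.86, 5.98 and 7.31, a difference of -1.80 (SE 0.37, 3.48-fold lower). Pdcd1lg2, which encodes PD-L2, a ligand of the inhibitory receptor PD-1, measured 7.54, 7.29 and 7.86 against 6.78, 6.50 and 6.65. The difference was -0.92 (SE 0.20; limma adjusted p = 0.229). Eif2ak2, the double-stranded RNA-activated kinase PKR that halts translation, measured 7.13, 7.29 and 6.84 against 5.35, 5.48 and 6.28 and differed by -1.39 (SE 0.31). Fam185a and Abhd1, which encodes a member of the alpha/beta hydrolase family, differed by -0.91 and -0.79.

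Only Grhl1 and Gm5127 were counted as higher. Grhl1, a transcription factor of the grainyhead family, measured 5.56, 5.31 and 6.22 in WT cells and 6.49, 6.60 and 6.63 without BAF180. The difference was 0.88 (SE 0.19; limma adjusted p = 0.229). Gm5127, a gene on the X chromosome, differed by 0.70. In all 11 counted genes the arrays of the 2 genotypes did not overlap, which was so for 7.38% of the genes tested. The 11 were picked by the values of the same arrays, so that this largely follows from the choice and is no separate evidence. The smallest p that an exact permutation test of 3 arrays against 3 can give is 0.1.

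Further genes were counted only with the letter as a block, of which those with the same sign in every pair are described first. Ly6c1, which encodes a GPI-linked surface antigen of memory T cells, measured 7.38, 7.06 and 8.41 against 6.59, 4.57 and 6.40. It differed by -1.76 (limma adjusted p = 0.260 with the block). Prnp, the cellular prion protein, had a mean of 9.09 ± 0.15 (SD, n = 3) in WT cells and of 8.08 ± 0.18 without BAF180, with no overlap and a difference of -1.01 (limma adjusted p = 0.104 with the block). Selp, the adhesion molecule P-selectin, differed by -1.08, Bik, a BH3-only protein that promotes apoptosis, by -0.98, Arxes2 by -0.98 and Mansc1 by -0.91. H2-Oa, a chain of the H2-O molecule that restrains peptide loading of MHC class II, measured 6.50, 6.66 and 5.51 against 5.52, 5.38 and 4.94. Its groups overlapped, because the WT array of letter C was low, but each pair was lower without BAF180.

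Of the genes counted as higher only with the block, Pik3cg had the largest difference among those with all 3 pairs higher. Pik3cg encodes the catalytic subunit of phosphoinositide 3-kinase gamma and measured 6.47, 6.65 and 7.31 against 7.51, 7.25 and 8.69, a difference of 1.00 (limma adjusted p = 0.104 with the block). Mmp13, which encodes a collagenase, measured 8.81, 8.80 and 7.64 against 9.28, 9.76 and 8.56, a difference of 0.78 (limma adjusted p = 0.0984 with the block). Abcb1b, a drug efflux pump, differed by 0.66, Lpin2, a phosphatidate phosphatase, by 0.65, Dcxr, a carbonyl reductase, by 0.61 and Prxl2a, a peroxiredoxin-like protein, by 0.49. Of these 6 genes only Abcb1b had arrays that did not overlap between genotypes.

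The interferon-stimulated genes, which encode antiviral proteins and are switched on by interferons, lay lower as a group. Of 47 tested, 45 had a negative difference, where 49.1% of all genes were lower and 50.9% higher, and the median was -0.28 beside 0.003 over all genes. With an unadjusted p below 0.05 in limma there were 9 lower and 0 higher, or 18 lower and 0 higher with the letter as a block, where 1.68% of all genes were lower and 1.2% higher at that p without the block and 2.85% lower and 2.45% higher with it. All 3 letter pairs were lower in 30 of them, which was so for 13.3% of all genes, and the arrays did not overlap in 13, where 3.57% of all genes were lower without overlap. The median was -0.26 in pair A, -0.50 in pair B and -0.11 in pair C, and it stayed between -0.38 and -0.22 under every alternative run, leaving out single arrays included. Only Eif2ak2 was counted by the criteria, and Gbp2 was added with the block. Members respond to the same factors and are not independent of each other.

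Isg15, a ubiquitin-like protein, measured 6.95, 7.41 and 5.94 in WT cells and 4.92, 4.86 and 5.85 without BAF180. Letters A and B differed by -2.02 and -2.55 and letter C was nearly equal, at -0.09. The mean difference of -1.56 (SE 0.55) had an unadjusted p of 0.00992 in limma and an adjusted p of 1.00. Usp18, the protease that removes ISG15 from proteins, measured 6.36, 6.78 and 5.54 against 4.21, 4.95 and 5.18, a difference of -1.44 (unadjusted p = 0.00864 in limma). Gbp2, a guanylate-binding protein, measured 9.69, 9.50 and 10.09 against 8.72, 8.49 and 9.75. It was lower in each pair, by -0.77 on average (limma adjusted p = 0.0984 with the block). Irf7, the transcription factor that amplifies the interferon response, measured 5.19, 5.44 and 4.52 against 4.40, 4.58 and 4.24. It was detected on 2 WT arrays and on no BAF180-deficient array, which makes it at least 1.31-fold lower. Adar, the double-stranded RNA editing enzyme, differed by -0.30, Bst2, which tethers virus particles to the cell, by 0.02, with opposite sign after Z-scoring and without background correction, and Oas2, which was not detected on any of the 6 arrays, by 0.02.

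**Figure D2:**
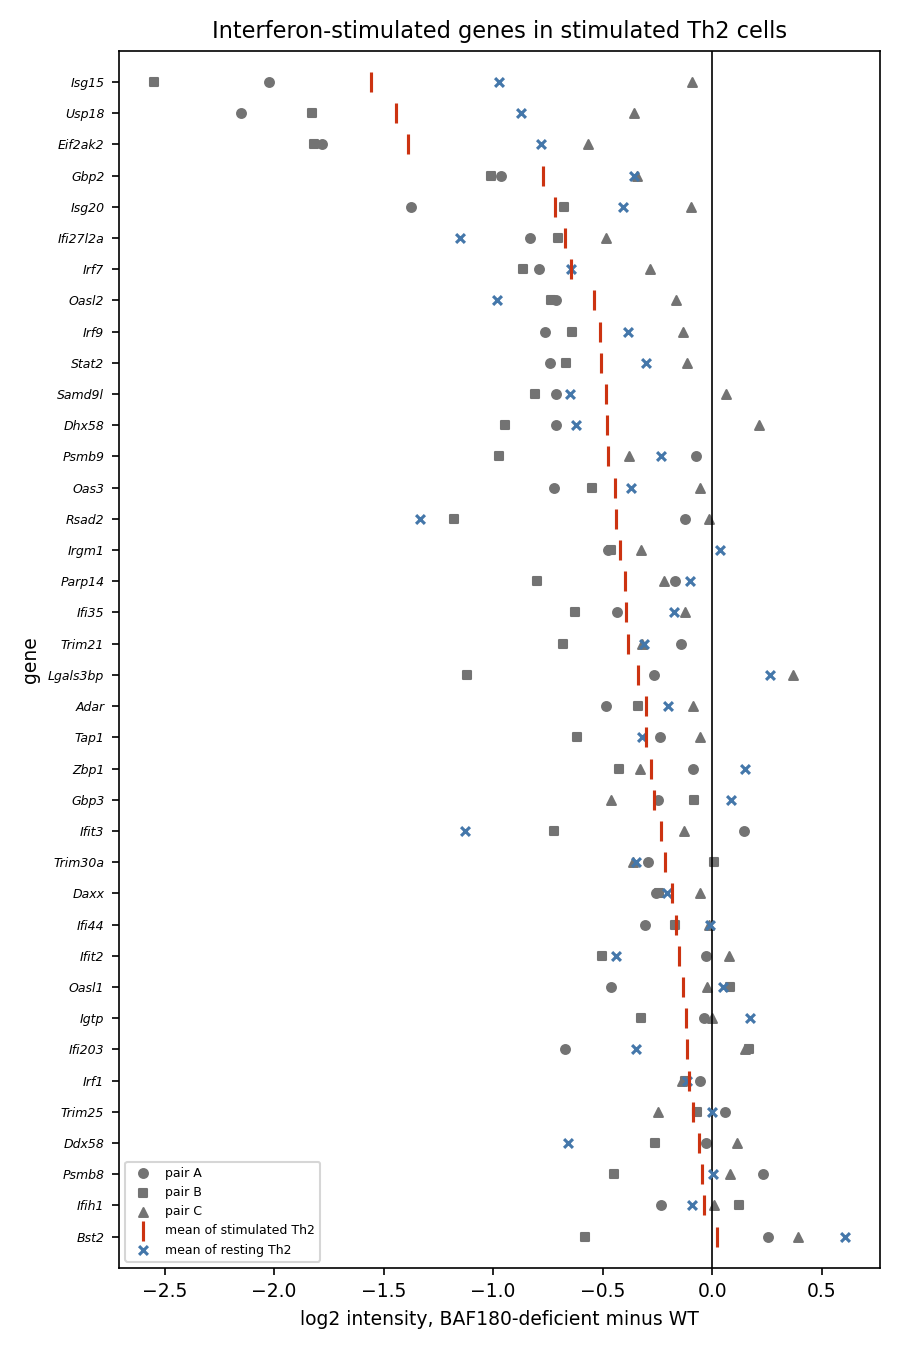
Difference in log2 intensity, BAF180-deficient minus WT, of 38 of the 39 interferon-stimulated genes detected on at least 1 of the 6 arrays; grey symbols are the 3 letter pairs, red bars the mean of the pairs and blue crosses the mean in resting Th2 cells. Most red bars lie left of 0, the largest differences come from pairs A and B, and Bst2 at the bottom is above 0.

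The receptors and signalling proteins of the interferon pathway were centred near 0. The 12 tested had a median of -0.04, and 1 had an unadjusted p below 0.05 in limma by its brightest probe, where 2.88% of all genes did. That gene was Jak2, a kinase of cytokine receptors that the study also named as lower, which measured 11.60, 11.48 and 11.19 against 10.68, 11.19 and 10.68. The difference was -0.57 (unadjusted p = 0.0162 in limma). Tyk2, a kinase of the type I interferon receptor, differed by 0.21. Its dimmer probes gave 0.49 and 0.52 (unadjusted p = 0.0465 and 0.0375 in limma). Socs1, an inhibitor of these kinases, differed by -0.22.

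In resting Th2 cells 38 of the 47 interferon-stimulated genes were lower without BAF180, with a median of -0.30, from other arrays than those described above. In stimulated naïve cells 19 were lower and 28 higher, with a median of 0.06. Isg15 differed by -0.98 and Usp18 by -0.87 in resting Th2 cells, and by 0.32 and 0.43 in stimulated naïve cells. Against stimulated naïve cells the interaction of Isg15 was -1.87 (unadjusted p = 0.0248 in limma), that of Usp18 -1.87 (unadjusted p = 0.0148) and that of Eif2ak2 -1.33 (unadjusted p = 0.00575), each with an adjusted p of 1.00. These genes were picked by their values on the stimulated Th2 arrays, which also enter the interaction, so that its unadjusted p leans towards a difference.

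The interferon-stimulated response element is the sequence that interferon regulatory factors bind. Its core was searched for as GAAA, any 2 bases and GAAA again, on both strands and with overlapping matches counted, in the 300 bases from 250 before to 50 after each RefSeq gene start (GRCm38.p6). Of the 47 genes, 37 had a window and 16 of these held a match, or 43.24%, where 3.95% of the tested genes with a window and 3.44% of all windows did. The genes were listed because interferons switch them on, so that this share says nothing about the genotype difference. Whether members with a match differed more than the others was not tested. Among the 45 histone genes with a window 1 held a match. The 140 bases before the start are shown for Isg15, which had the largest difference, for Gbp2, which was counted with the block, for Irgm1 and Oas3, and for Bst2, which held 2 matches and had a difference near 0. All are printed 5′ to 3′ in the direction of transcription with the matches in capitals, and TTTC, any 2 bases and TTTC is the match on the other strand.
Isg15 (chr4:156200819-156200958, minus strand): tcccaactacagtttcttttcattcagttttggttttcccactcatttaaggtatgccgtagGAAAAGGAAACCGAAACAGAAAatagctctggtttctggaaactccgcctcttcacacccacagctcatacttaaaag
Gbp2 (chr3:142620523-142620662, plus strand): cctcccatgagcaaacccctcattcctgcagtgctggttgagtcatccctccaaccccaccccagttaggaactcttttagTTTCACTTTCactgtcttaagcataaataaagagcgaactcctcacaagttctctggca
Irgm1 (chr11:48871421-48871560, minus strand): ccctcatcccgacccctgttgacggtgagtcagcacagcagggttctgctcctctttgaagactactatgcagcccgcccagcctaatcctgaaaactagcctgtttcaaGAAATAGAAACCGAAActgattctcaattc
Oas3 (chr5:120777660-120777799, minus strand): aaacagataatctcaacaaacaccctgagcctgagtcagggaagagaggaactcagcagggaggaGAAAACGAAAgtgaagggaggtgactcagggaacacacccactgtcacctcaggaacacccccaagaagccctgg
Bst2 (chr8:71537473-71537612, minus strand): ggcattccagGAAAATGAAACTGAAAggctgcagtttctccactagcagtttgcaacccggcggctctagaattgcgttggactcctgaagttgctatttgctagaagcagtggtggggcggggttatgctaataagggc
Isg15 held 3 overlapping matches with their first bases 78, 72 and 66 bases before the start, Irgm1 held 2 at 30 and 24, and Gbp2 and Oas3 held 1 each at 59 and 75. Irgm1, an immunity-related GTPase, differed by -0.42 and Oas3, an oligoadenylate synthetase, by -0.44, while Bst2 with its matches at 130 and 124 differed by 0.02. Eif2ak2 held its match 18 bases after the start, and Irf7 held none in its window.

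Histone genes were the other large group with a common sign. Of 50 tested, 44 were lower, with a median of -0.18, which was -0.04 in pair A, -0.52 in pair B and -0.18 in pair C. None was counted, 2 had an unadjusted p below 0.05 in limma, both lower, and with the block 9 were lower and 1 higher at that p. Over all genes 49.1% were lower by sign, 1.68% were lower at that p without the block, and 2.85% were lower and 2.45% higher with it. H3c1, a replication-dependent histone H3 gene, measured 6.64, 7.03 and 7.75 against 6.42, 6.08 and 6.95, so that the groups overlapped and the difference was -0.65. H2bc11 differed by -0.62, as did H3c6, the other gene with an unadjusted p below 0.05 in limma, which was picked out after its values were seen. The variant histone gene H2ax, which marks broken DNA when phosphorylated, differed by 0.21. Replication-dependent histone genes are near copies of each other and mostly lack the poly(A) tail that the labelling primer binds, so that their values are uncertain and not independent. The median stayed between -0.32 and -0.11 under every alternative run. From the same arrays the study reported lower expression of nucleosome assembly gene sets in stimulated BAF180-deficient Th2 cells, which is no independent evidence.

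Amino acid transport, tRNA charging and ATF4 target genes had 26 of 36 lower with a median of -0.10, and 5 had an unadjusted p below 0.05 in limma, all lower, where 49.1% of all genes were lower by sign and 1.68% lower at that p. Slc7a3 was the only one counted. Atf5, a transcription factor of the integrated stress response, measured 8.52, 8.54 and 7.59 against 7.24, 7.59 and 6.98, a difference of -0.95 (unadjusted p = 0.0120 in limma). Vldlr, a lipoprotein receptor induced by ATF4, differed by -0.68. The remaining members at that p, picked out after their values were seen, were Slc3a2, the heavy chain of amino acid transporters, at -0.35 and Cars, the cysteinyl-tRNA synthetase, at -0.33. Psat1, an enzyme of serine synthesis, differed by 0.18, and Lars, the leucyl-tRNA synthetase, by 0.21. The sign of the median was not stable: it lay between -0.30 and 0.09 when single arrays were left out. In nucleotide synthesis and salvage genes the median over 30 was -0.03 and Upp1 stood alone among them. Cad, which starts pyrimidine synthesis, differed by 0.45 (unadjusted p = 0.0432 in limma), Rrm2, a subunit of ribonucleotide reductase, by 0.46 and Adss, of purine synthesis, by -0.36. All 3 pairs of Rrm2 were higher, by 0.72, 0.35 and 0.30 (unadjusted p = 0.361 in limma, and 0.0233 with the block), and leaving out BAF180-deficient array C alone, whose WT counterpart then remained, gave -0.02.

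**Figure D3:**
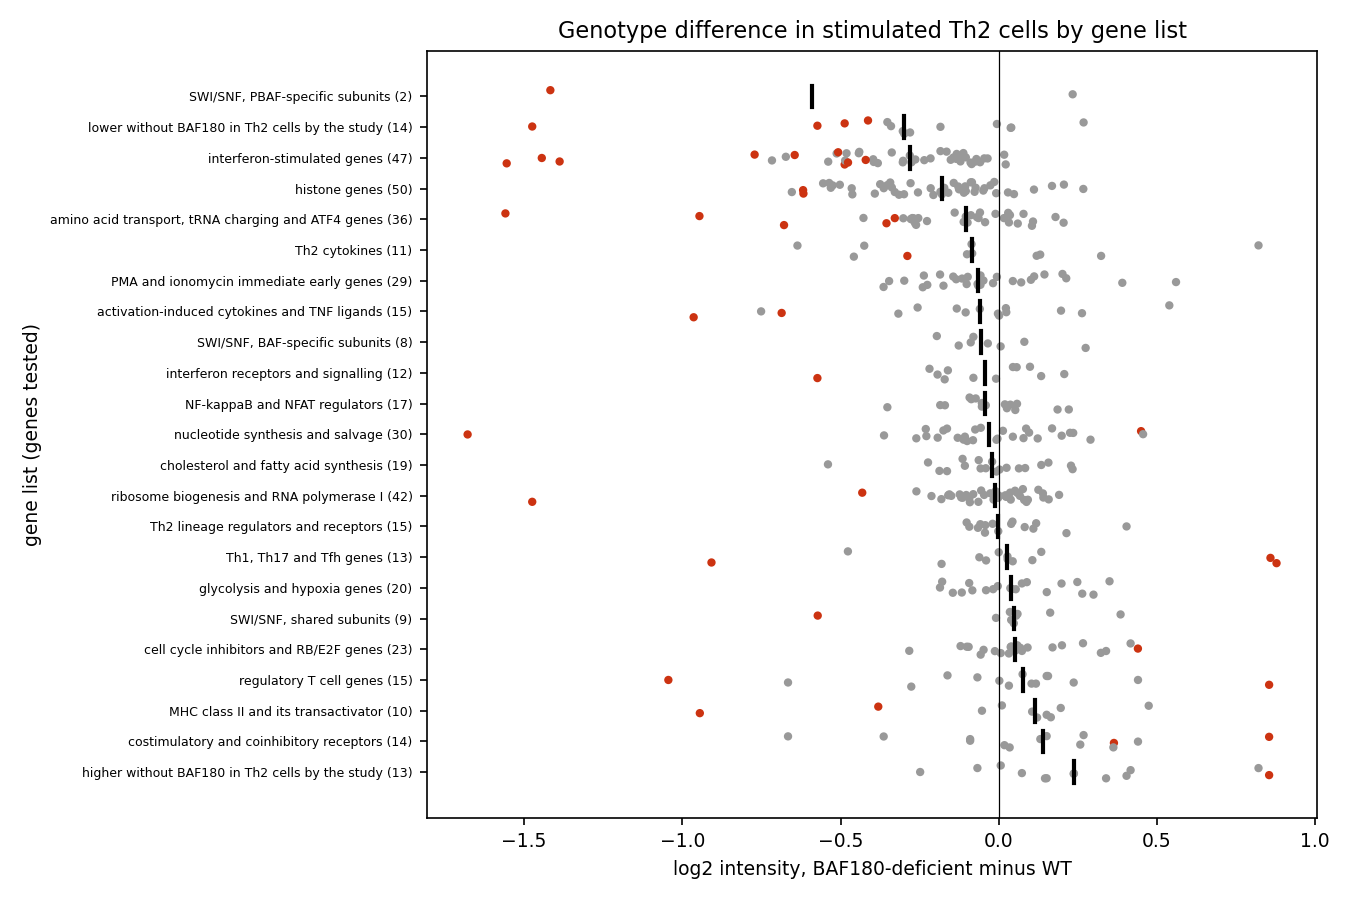
Difference in log2 intensity, BAF180-deficient minus WT, of each tested member of 23 gene lists in stimulated Th2 cells; points are genes by their brightest probe, red where the unadjusted p of limma is below 0.05, and black bars are medians. The interferon-stimulated genes and the histone genes lie mostly left of 0, and most other lists are centred within 0.10 of it.

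No gene of the Th2 programme was counted without the block. The 11 tested Th2 cytokine genes had 7 lower and 4 higher, a median of -0.09, and none counted in either fit. With an unadjusted p below 0.05 in limma there was 1, Il6, where 1.68% of all genes were lower at that p. Il6 was picked out after its values were seen. Il6 was detected on 2 WT arrays and on no BAF180-deficient array, which makes it at least 1.07-fold lower. With the block there were 1 higher, Il10, and 4 lower, Il3, Csf2, Il6 and Areg, where 2.45% of all genes were higher and 2.85% lower. Areg, which encodes amphiregulin, was also picked out after its values were seen and differed by -0.42. Il4 measured 14.08, 14.02 and 13.97 in WT cells and 14.08, 14.14 and 14.20 without BAF180. The difference of 0.12 was within the limma SE of 0.49, which is drawn from the spread in all cell states of the study. The stimulated Th2 arrays lay closer together, with Il4 SDs of 0.06 in WT cells and 0.06 without BAF180. Pair A was equal, so that the genotypes were not separated. The differences of Il5 at 0.13 and of Il13 at -0.10, whose sign changed without letter C, were also within their limma SE. Among 15 lineage regulators and receptors the median was 0.00, and Gata3 differed by -0.09 (SE 0.18), with opposite sign after Z-scoring. Nfil3, a basic leucine zipper factor regulated by IL-3 and among the genes the study named as higher, measured 9.52, 9.33 and 9.22 against 9.86, 9.59 and 9.83, a difference of 0.40 (unadjusted p = 0.429 in limma, and 0.0253 with the block).

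Il10, which encodes the immunosuppressive cytokine IL-10, was the Th2 cytokine gene with the largest positive difference. It measured 11.53, 10.95 and 11.77 in WT cells and 12.32, 12.12 and 12.28 without BAF180. The groups did not overlap and each pair was higher, with a difference of 0.82 (SE 0.56, 1.77-fold). Its unadjusted p in limma was 0.157, or 0.00417 with the letter as a block, and its adjusted p with the block was 0.479, so that it was not counted. The SE and these p-values use the spread in all cell states of the study. On the stimulated Th2 arrays the Il10 SDs were 0.42 in WT cells and 0.11 without BAF180. The study named Il10 as the gene most raised without BAF180 in both resting and activated Th2 cells. It also reported more Il10 mRNA and primary transcript by real-time PCR, and more IL-10-producing cells by staining. On the resting Th2 arrays the Il10 difference was 1.69, and the interaction of -0.87 had an unadjusted p of 0.282 in limma. Il3 and Csf2, neighbouring cytokine genes, had the 2 largest negative differences of the list. Il3 had a mean of 13.23 ± 0.32 (SD, n = 3) in WT cells and of 12.59 ± 0.55 without BAF180, a difference of -0.64 (unadjusted p = 0.144 in limma, and 0.00969 with the block). Csf2, which encodes GM-CSF, measured 11.01, 10.96 and 11.07 against 10.75, 10.89 and 10.04, a difference of -0.46 (unadjusted p = 0.0518 in limma, and 0.0209 with the block). In both genes the groups did not overlap and letter C differed most.

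Of the genes of other helper lineages, the chemokine receptor Cxcr3 of Th1 cells was counted as lower with the block. Cxcr3 measured 7.97, 7.40 and 8.01 against 6.84, 7.12 and 6.70, a difference of -0.91 (limma adjusted p = 0.257 with the block). Il17f and Il17a, the linked cytokine genes of Th17 cells, differed by 0.88 (unadjusted p = 0.0188 in limma) and 0.86 (unadjusted p = 0.0377). Il17a measured 7.31, 7.07 and 9.23 against 9.43, 8.34 and 8.42, so that letters A and B were higher and letter C lower without BAF180. Ifng differed by -0.04, with opposite sign after Z-scoring, and Bcl6, the repressor of follicular helper T cells, by -0.48.

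**Figure D4:**
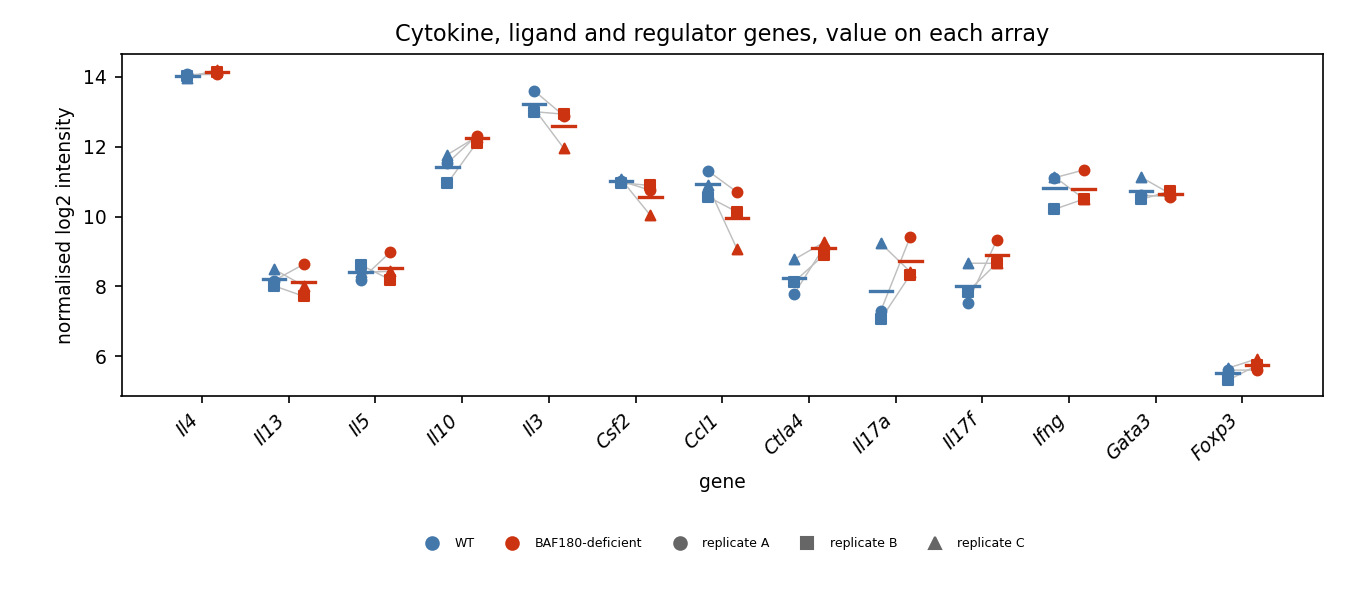
Normalised log2 intensity of 13 cytokine, ligand and regulator genes on each array of stimulated Th2 cells; points are arrays (circle A, square B, triangle C), grey lines join arrays of the same letter and short bars are means of 3 arrays. Il10 and Ctla4 are higher and Il3 and Csf2 lower on every BAF180-deficient array, and the other genes overlap between genotypes.

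Of 9 tested markers of stimulated T cells 7 were detected on all 6 arrays. Of 29 immediate early and early activation genes 20 were lower, with a median of -0.07, where 49.1% of all genes were lower. In limma 0 had an unadjusted p below 0.05, where 2.88% of all genes did, and 1 did with the block, where 5.3% did. That gene was Zfp36, which encodes a protein that destabilises cytokine mRNAs, with a difference of 0.39 and no overlap. Egr1, an immediate early transcription factor, measured 10.33, 10.04 and 10.74 against 9.80, 10.01 and 10.42, a difference of -0.30. Cd69, an early activation antigen, differed by -0.36 without overlap, Nr4a3, an orphan nuclear receptor, by -0.35 and Csrnp1, an AXIN-induced nuclear protein, by 0.56. The 17 regulators of NF-κB and NFAT had a median of -0.04 and lay between -0.35 for Ikbke, a kinase of the NF-κB and interferon pathways, and 0.22 for Nfatc1, of whose 5 probes 1 had the opposite sign. Without WT array B these became 0.14 for Ikbke and -0.02 for Nfatc1.

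Among 15 activation-induced cytokine and ligand genes the median was -0.06. Ccl1, a chemokine that attracts CCR8-bearing T cells, measured 11.32, 10.57 and 10.91 against 10.70, 10.13 and 9.07, a difference of -0.96 (unadjusted p = 0.00915 in limma). Each pair was lower but the groups overlapped. Ccl5 differed by -0.75, Ccl4 by 0.54 and Ccl3 by 0.26. Tnfsf11, which encodes RANKL and was picked out after its values were seen, measured 9.03, 8.68 and 8.81 against 8.39, 8.10 and 7.98, a difference of -0.69 without overlap.

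Among genes of regulatory T cells and of inhibitory receptors, Ctla4 had the largest positive difference. Ctla4, which encodes an inhibitory receptor for CD80 and CD86 and is among the genes the study named as higher, measured 7.79, 8.13 and 8.77 against 9.11, 8.89 and 9.26. The difference was 0.85 (SE 0.38, 1.81-fold; unadjusted p = 0.0345 in limma, and 0.00377 with the block). Foxp3, the defining transcription factor of regulatory T cells, measured 5.60, 5.31 and 5.66 against 5.61, 5.74 and 5.93, a difference of 0.24 (unadjusted p = 0.382 in limma). Lag3 differed by 0.44, Il2ra, the high-affinity subunit of the IL-2 receptor, by -0.07, and Nrp1, a semaphorin receptor of thymus-derived regulatory T cells, by -1.04 with mixed signs among the pairs. Over the 15 regulatory T cell genes the median was 0.08, and over 14 costimulatory and coinhibitory receptors it was 0.14 with 10 higher. Summed normalized intensities of 6 regulatory T cell markers, offsets included, were 689.4, 803.0 and 1153.5 in WT cells and 1061.0, 976.0 and 1247.4 without BAF180. Fewer cells of a type and less RNA per cell cannot be told apart in these bulk samples.

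The genes that the study named for Th2 cells were chosen on these samples and are no independent evidence, and they were not named for the stimulated state alone. Of the 13 named as higher, 11 were higher here with a median of 0.24, and Furin at -0.25, with opposite sign after Z-scoring, and Il2ra at -0.07 were not. In resting Th2 cells all 13 were higher, with Furin at 0.88 and Il2ra at 0.52. Of the 14 named as lower, 11 were lower with a median of -0.30, while Cd28, the main costimulatory receptor of T cells, differed by 0.27 and Cdk2 and Rb1 by 0.04 each. The other 2 probes of Cd28 gave -0.05 and -0.15. In resting Th2 cells 13 of the 14 were lower, with Cd28 at -0.51 and Cdk2 at -0.22. None of the 27 was counted without the block. With it only Twistnb, a subunit of RNA polymerase I, was counted, by its dimmer probe. The brightest Twistnb probe measured 8.01, 7.81 and 7.36 against 6.95, 7.01 and 4.80, a difference of -1.47 with no overlap.

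Ribosome biogenesis, glycolysis, lipid synthesis and cell cycle genes were centred near 0. The medians were -0.01 over 42 ribosome biogenesis and RNA polymerase I genes, 0.04 over 20 glycolysis and hypoxia genes, -0.02 over 19 cholesterol and fatty acid synthesis genes and 0.05 over 23 cell cycle inhibitor and RB/E2F genes, and the sign of each of these 4 medians changed under at least 1 alternative. By Gene Ontology gene sets the study reported ribosome biogenesis and translation as increased in stimulated BAF180-deficient Th2 cells. Its gene sets and its measure were not those used here. Cdkn2b and Cdkn2a, neighbouring genes of cell cycle inhibitors, differed by 0.44 (unadjusted p = 0.0167 in limma) and 0.42 (unadjusted p = 0.0710). Cdkn2a measured 6.94, 6.90 and 6.18 against 7.67, 6.90 and 6.70, so that pair B was nearly equal. The dimmer Cdkn2a probe gave 0.52 (unadjusted p = 0.0297 in limma). Cdkn1a, the inhibitor p21, differed by -0.01. Gnl3l, a nucleolar GTPase, differed by -0.43 (unadjusted p = 0.00364 in limma), and Scd1, a fatty acid desaturase, by -0.54 (unadjusted p = 0.256). Of 10 MHC class II genes 7 were higher, while the H2-O chains H2-Oa and H2-Ob were the 2 lowest at -0.94 and -0.38. Cd74, the invariant chain, was higher in all 3 pairs, by 0.28, 0.57 and 0.58, with a difference of 0.47 (unadjusted p = 0.395 in limma, and 0.0231 with the block). Leaving out BAF180-deficient array C alone, whose WT counterpart then remained, gave -0.01 for Cd74. The summed B cell markers, offsets included, were 184.6, 175.3 and 285.5 on WT arrays A, B and C. On the BAF180-deficient arrays they were 194.3, 187.9 and 417.5, higher in each pair and highest in letter C. Their part in the MHC class II values was not tested.

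To find out whether a difference was particular to the stimulated Th2 state, each was tested against that in resting Th2 and in stimulated naïve cells. No probe had an interaction with an adjusted p below 0.05 in limma. At an unadjusted p below 0.05 there were 257 of 14246 probes, or 1.80%, against resting Th2 cells and 218, or 1.53%, against stimulated naïve cells. Upp1 had the lowest adjusted p in both comparisons, which was 0.500 against resting Th2 cells, by a dimmer probe with a difference of -1.15, and 0.269 against stimulated naïve cells. By the brightest probe the Upp1 difference of -1.68 stood beside -0.19 in resting Th2 and 0.05 in stimulated naïve cells (limma interaction, unadjusted p = 0.000195 and 3.78e-05; adjusted p = 1.00 and 0.269). Slc7a3 differed by -0.08 in resting Th2 cells but by -1.38 in stimulated naïve cells, and only the former departed from stimulated Th2 cells at an unadjusted p below 0.05 in limma (0.00171). Nrn1 showed the opposite arrangement, with -1.59 in resting Th2 cells and 0.06 in stimulated naïve cells (unadjusted p = 0.698 and 0.00209 in limma). Sln differed by -0.35 and 0.01 in these states, Grhl1 by 0.09 and 0.25 and Pdcd1lg2 by -0.07 and -0.23. No interaction of Slc7a3 or Nrn1 had an adjusted p below 0.05 in limma. The counted genes were picked by their values on the stimulated Th2 arrays, which also enter the interactions. Their unadjusted interaction p-values therefore lean towards a difference between states.

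**Figure D5:**
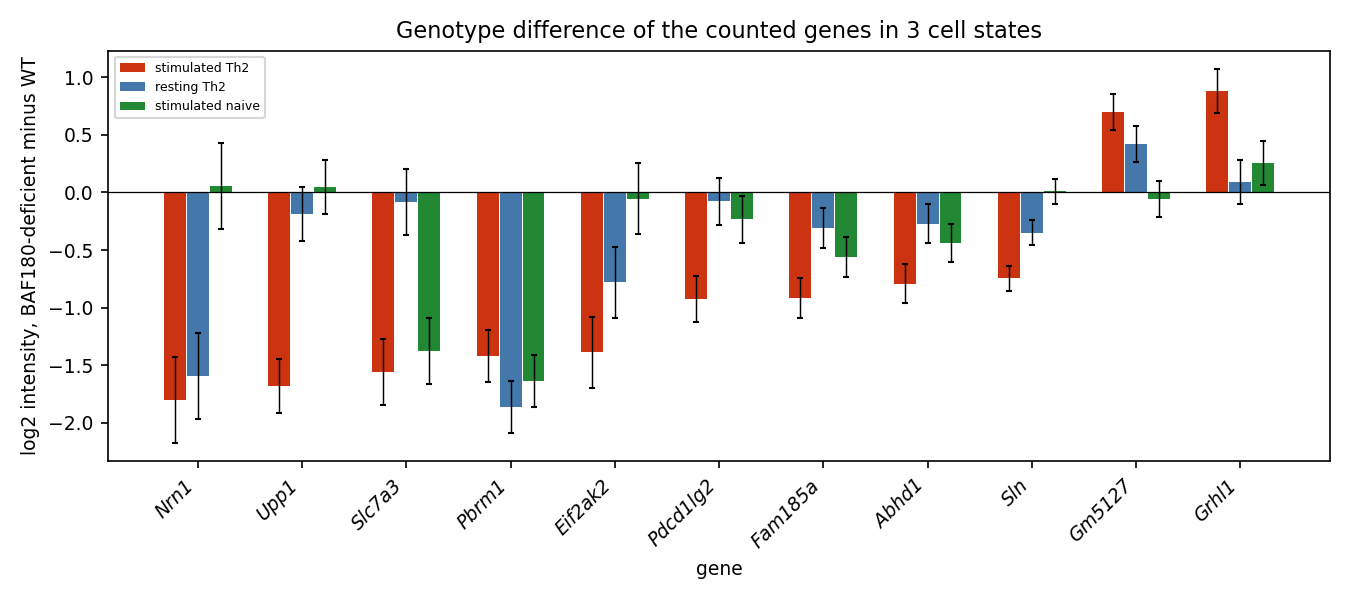
Difference in log2 intensity, BAF180-deficient minus WT, of the 11 counted genes in stimulated Th2, resting Th2 and stimulated naïve cells; bars are differences of means of 3 arrays per genotype and error bars the SE of limma. Pbrm1 is lower in all 3 states, Upp1 is at -1.68 in stimulated Th2 cells and at -0.19 and 0.05 in the other states, Slc7a3 is near 0 in resting Th2 cells and Nrn1 near 0 in stimulated naïve cells.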

How the data were processed

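The authors hybridized biotin-labelled cRNA from total RNA to Illumina MouseRef-8 v2 BeadChips. The deposited values are average bead intensities per probe, neither background-subtracted nor normalized, with detection p-values that GenomeStudio (version 1.6.0 per the labels' processing notes) computed against control probes. All 24 arrays were normalized together with neqc (limma 3.58.1, R 4.3.3), which subtracts a background estimated through the detection p-values, adds an offset of 16, equalizes quantiles and takes log2. The filter kept 14246 of 25697 probes, those that reached a detection p of 0.02 or lower on 1 or more arrays. Names came from RefSeq through the Entrez ID of 16938 probes, the accession of 7420, the symbol of 465 and a synonym of 553, and 321 stayed as deposited. Group means were fitted to all arrays (lmFit, eBayes, 16 residual degrees of freedom), with the letter within each cell state as a block beside it (8 residual degrees of freedom). The block was used since the study describes 3 pairs of mice and every same-letter correlation was above 0.1. WT A with BAF180-deficient B (0.393) and WT B with BAF180-deficient A (0.179) also passed that limit, so it cannot tell pairs from other combinations of A and B. Adjustment was by Benjamini-Hochberg over all kept probes. The criteria are those of the study's methods (difference beyond 1.5 SD of all differences, p below 0.05, false discovery rate below 0.3, mean background-corrected signal above 0), with p and false discovery rate from limma. A gene stands for its brightest probe. "At least" folds compare with the lowest detected signal. A gene was named if it was Pbrm1, was counted without the block, was among the 8 largest per direction counted only with it whose pairs all had the same sign, was a counted or extreme member of a gene list (the 2 largest differences each way), or was on a fixed list of 23 genes, and 1 gene that the rule names is not reported here. The members, lists and rule were chosen with earlier results of these data known. The fit was tested on simulated data. The number of arrays limits the precision. Promoter windows were from RefSeq (GRCm38.p6).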

Additional observations from a re-analysis of the deposited data

How the results depend on the processing

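The 11 counted genes became 42 with the replicate block, 7 in a fit to the 12 Th2 arrays, 7 without the detection filter, 5 without moderated variances, 3 at an adjusted p below 0.05 and 342 (149 higher, 193 lower) without the false discovery rate. Fitted to the 6 arrays alone, limma counted 0, with 487 probes at an unadjusted p below 0.05, and 0 with the replicate block and 964 such probes. Leaving out single arrays gave 3 (without WT A) to 33 (without WT C), with 4 without WT B, 5 without BAF180-deficient A, 7 without B and 16 without C. Without letter C, a choice made after seeing the data, it was 17, and 10 of the 11 were among them. The 42 genes of the fit with the replicate block became 11 with no replicate block, 0 in the 6 arrays and 25 without the detection filter, and leaving out a letter gave 5 (A), 17 (B) or 31 (C). With no background correction 9 of the 11 were counted, and Z-scores as in the methods gave 13, all of them lower, with 8 of the 11 among them, and 44 with the block, 6 higher and 38 lower. The 0 interactions became 1 at most against resting Th2 cells when single arrays were left out (Upp1 without WT A, Slc7a3 without WT C), and against stimulated naïve cells 1 without background correction and 1 with Z-scores (Upp1 in both), and 0 to 2 probes leaving out single arrays (Upp1 without WT A or BAF180-deficient C, Csta2 without BAF180-deficient B). The cause was not tested. Of the 115 named genes, 8 changed sign under another setting (Bcl7b, Actb, Il21, Gata3, Bst2, Furin, Il13 and Ifng) and 23 when single arrays were left out, none of them counted. A BeadChip block was not run, since no chip is named. Probes near background give small differences whatever the true change.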

Other observations

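Several genes differed far more between replicate letters than between genotypes. Of 8478 genes detected on at least 1 of the 6 arrays, 273 had a range of at least 1 between the letter means on the log2 scale, with the highest and the lowest letter the same in both genotypes in 136 of them, while 26 had a difference of at least 1 between genotypes. The range is taken over 3 letters and the difference over 2 genotypes, so the counts are not on the same footing. The genes named here were picked for these values. Ctse, which encodes the protease cathepsin E, measured 9.91, 6.67 and 5.20 on WT arrays A, B and C and 9.53, 6.42 and 5.30 on the BAF180-deficient arrays. Trim30a, an interferon-inducible gene, measured 7.11, 4.35 and 5.64 against 6.82, 4.35 and 5.28, and Xcl1, the chemokine lymphotactin, 6.71, 6.06 and 8.89 against 7.10, 5.91 and 8.73. Trib3, a target of ATF4, was lowest in letter C of both genotypes at 6.40 and 6.45, beside 8.74, 9.07, 8.24 and 8.25 on the other arrays. Phgdh, the first enzyme of serine synthesis, was likewise lowest in letter C, at 6.97 in both genotypes.

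Csta2, a gene of the stefin family of protease inhibitors, had the largest difference of all genes. It was not detected on the WT arrays, at 4.16, 4.24 and 4.20, and measured 8.52, 4.14 and 10.07 without BAF180, which is at least 7.54-fold higher on average but absent from letter B. It was counted with the letter as a block (limma adjusted p = 0.260) and not without it (0.708). Its relatives Cstdc4, at 5.33, 5.28 and 9.60 against 9.38, 5.41 and 11.11, and Stfa3, at 5.28, 4.79 and 8.62 against 6.18, 5.19 and 8.80, were also highest in letter C. Stefin genes are near copies of each other, and probes of near copies cannot be told apart by hybridization. S100a8 and S100a9, which accompany stefins in neutrophils, were not detected on any of the 6 arrays.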
